A study of Homo sapiens with 4 samples.

Results

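The enzymes that make serine from glucose and pass its carbon to folate were followed in Jurkat cells depleted of the long non-coding RNA ARIEL. A list of 9 enzymes was taken by gene symbol from a table of 22361 genes and loci: PHGDH, PSAT1, PSPH, SHMT1, SHMT2, MTHFD1, MTHFD2, MTHFD1L and ALDH1L2. Each symbol matched 1 row, and 8 of the 9 were abundant enough to test. Jurkat is an established human line from a T-cell acute lymphoblastic leukaemia, a tumour of immature T cells.

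RNA was measured in 4 libraries. In 2 control libraries the cells carried a lentiviral shRNA against GFP, and in 2 knockdown libraries a lentiviral shRNA against ARIEL. All were under puromycin selection (0.7 µg/ml for at least 36 h) and were collected at 72 h after infection. The labels name no clone and do not say whether replicates were separate infections, so the p-values here reflect just the scatter of these 4 libraries, which may be technical. In the main limma fit that scatter was pooled over genes of similar level, and a gene's own scatter had no weight. Each library has 1 regularised log (rlog) value per gene. This is a log2 expression value that DESeq2 pulls towards the gene's mean, most strongly where counts are noisy. Differences of rlog values therefore understate the change, in abundant genes too. MTHFD2, for example, differed by 0.19, against an authors' deposited log2 fold change of 0.34. The table gives no read totals, and the depth of each library is therefore unknown.

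In this pathway PHGDH, PSAT1 and PSPH turn the glycolytic intermediate 3-phosphoglycerate into serine. SHMT1 in the cytosol and nucleus and SHMT2 in mitochondria split serine into glycine and a one-carbon unit, which is bound to tetrahydrofolate. In mitochondria MTHFD2 oxidises that unit and MTHFD1L then releases it as formate. ALDH1L2 oxidises the unit to carbon dioxide there, and the multi-domain MTHFD1 uses the formate in the cytosol. The units are spent on purines, thymidylate and methionine, and growing T cells and leukaemia cells are known to depend on them. Several genes of the pathway, among them PHGDH, PSAT1, PSPH, SHMT2 and MTHFD2, are known targets of ATF4, the transcription factor of the amino acid response, and many are known targets of MYC.

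After ARIEL knockdown all 3 enzymes of serine synthesis fell, PSAT1 the most, and so did SHMT1 and MTHFD1L by small amounts. MTHFD2 rose. SHMT2 and MTHFD1 did not pass the test, and ALDH1L2 was at the bottom of the scale in both groups. Of the 8 enzymes tested, 5 were lower and 1 was higher (limma, Benjamini-Hochberg adjusted p under 0.05 over 14601 genes), where 22.4% of all tested genes were lower and 22.1% higher. Their median difference was -0.10 on the rlog scale, against 0.000 for all tested genes. The enzymes were chosen with earlier results of these data known, so their counts beside all genes are a description and not a test. Without ARIEL knockdown replicate 1, 3 were lower, with SHMT1 and MTHFD1L no longer called. The control and knockdown values did not overlap in any of the 8, as in 70.7% of all tested genes. The authors' deposited table also has 5 of them lower and 1 higher at an adjusted p under 0.05, where it calls 19.3% of genes lower and 20.1% higher.

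The knockdown and the cell identity were checked first. No row carries the name ARIEL. From background knowledge of the study, which the table does not state, it is the locus XLOC_005968, whose rlog values were 12.02 and 11.91 in control libraries against 10.58 and 10.55 in knockdown libraries. That is a difference of -1.40 ± 0.04 (SE, n = 2 per group). All 9 T-lineage and leukaemia markers that have a row were expressed (rlog 12.15 to 16.77, CD3D and LCK among them). The log2 of their summed level was 18.00 and 18.01 in control and 17.90 and 17.92 in knockdown libraries. Single markers moved in both directions. CD2, CD3G, CD5, CD28 and TAL1 were lower in both knockdown libraries than in both controls, and CD7 was higher. CD5 had 12.60 and 12.58 in control against 12.28 and 12.27 in knockdown libraries, and CD7 had 12.46 and 12.52 against 12.73 and 12.72. Of 12 markers of other cell types, 5 were listed at 0 in every library, MS4A1, CSF1R, EPCAM and COL1A2 among them, and 4 passed the filter (CD79A, CD14, KRT8 and COL1A1). The log2 of their summed level was 11.07 and 11.14 in control against 11.35 and 11.37 in knockdown libraries. Most of that sum was the B-cell marker CD79A, at 10.91 and 10.99 against 11.23 and 11.25. The part of these shifts in the enzyme results was not tested. In bulk RNA, fewer expressing cells and less RNA per cell cannot be told apart.

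PHGDH, on chromosome 1, encodes the dehydrogenase that commits 3-phosphoglycerate to serine synthesis. Its rlog value was 13.01 and 13.07 in control libraries and 12.80 and 12.84 after knockdown. Both knockdown libraries lay below both controls, and the gap was about 4 times the 0.05 between the controls. The difference was -0.22 ± 0.03 (SE; 95% interval -0.29 to -0.15; limma, adjusted p = 8.76e-10). Only 6.29% of tested genes had a lower difference. In the authors' deposited table PHGDH was 1.32-fold lower (log2 fold change -0.40 ± 0.06, SE).

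PSAT1, on chromosome 9, encodes the aminotransferase of the next step, which takes nitrogen from glutamate. It had the largest change of the 8 enzymes tested. Control libraries had 12.63 and 12.58 and knockdown libraries 12.20 and 12.19. The members of each pair lay within 0.04 of each other, and the pairs were 0.41 apart. The difference was -0.41 ± 0.04 (SE; 95% interval -0.48 to -0.34; limma, adjusted p = 5.04e-29), and 1.42% of tested genes had a lower one. The authors' deposited table has PSAT1 1.68-fold lower (log2 fold change -0.75 ± 0.06, SE).

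PSPH, on chromosome 7, encodes the phosphatase that releases serine in the last step. It had 11.81 and 11.76 in control libraries against 11.60 and 11.61 in knockdown libraries. The knockdown libraries nearly coincided and lay below both controls. The difference was -0.18 ± 0.04 (SE; 95% interval -0.26 to -0.11; limma, adjusted p = 1.47e-05). PSPH was 1.27-fold lower in the authors' deposited table. GENCODE 29 names 4 pseudogenes of PSAT1, 1 of PSPH, 1 each of SHMT1 and MTHFD1 and 7 of MTHFD2, none with a row in the table, so reads from such copies may have been counted to the parent gene or lost.

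**Figure D1:**
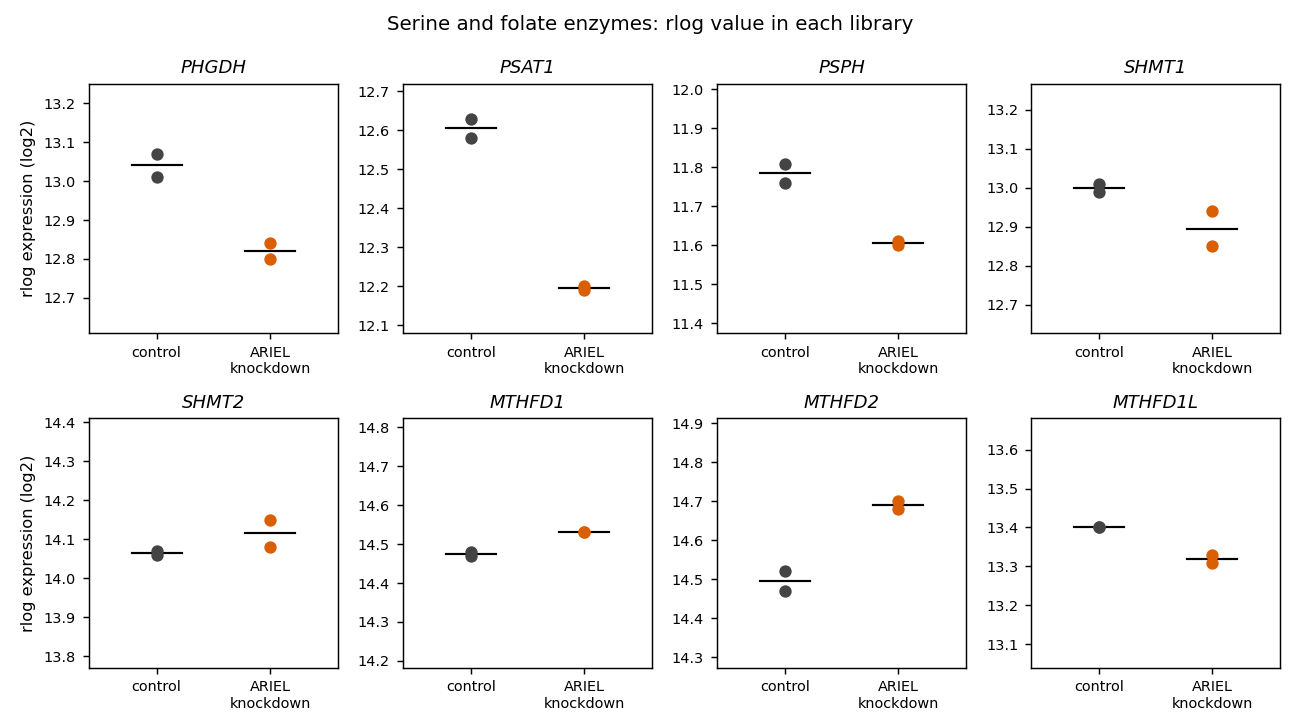
Each panel plots 1 enzyme: rlog expression (log2 scale, vertical axis, the same span in every panel, not starting at 0) in the 2 control libraries (grey) and the 2 ARIEL knockdown libraries (orange), with a line at each group's mean. PHGDH, PSAT1 and PSPH drop clearly in both knockdown libraries, MTHFD2 is higher in both, and SHMT1 shows the widest gap between knockdown libraries (12.85 and 12.94).

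SHMT1 and SHMT2 encode the cytosolic and the mitochondrial serine hydroxymethyltransferase. SHMT1, on chromosome 17, had 13.01 and 12.99 in control libraries and 12.85 and 12.94 in knockdown libraries. The knockdown libraries differed by 0.09 between themselves, nearly as much as the groups did. The difference was -0.11 ± 0.03 (SE; limma, adjusted p = 0.00525). It rested on ARIEL knockdown replicate 1: without that library the difference was -0.06 and was not called (limma, adjusted p = 0.318). SHMT1 overlaps SMCR8 on the opposite strand in GENCODE 29.

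SHMT2, on chromosome 12, had 14.06 and 14.07 in control libraries against 14.08 and 14.15 in knockdown libraries. Its difference of 0.05 ± 0.03 (SE) had a 95% interval of -0.01 to 0.11 (limma, adjusted p = 0.219). The interval leaves room for no change and for a rise of up to 0.11 on this scale. The rlog value of SHMT2 exceeded that of SHMT1 in the same library by 1.05 and 1.08 in control and by 1.23 and 1.21 in knockdown libraries. The gap between the paralogues was thus wider in both knockdown libraries, by 0.15 on average. This shift was not tested, and it counts the fall of SHMT1, which 1 library carried.

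MTHFD2, on chromosome 2, encodes the mitochondrial dehydrogenase and cyclohydrolase that is high in embryonic and tumour cells. It was the 1 enzyme that rose. Its rlog values were 14.52 and 14.47 in control and 14.70 and 14.68 in knockdown libraries, with both knockdown libraries above both controls. The difference was 0.19 ± 0.03 (SE; 95% interval 0.13 to 0.25; limma, adjusted p = 1.56e-08), higher than in 94.3% of tested genes. The authors' deposited table has it 1.27-fold higher (log2 fold change 0.34 ± 0.06, SE). MTHFD2 overlaps SLC4A5 on the opposite strand, as SHMT2 does NDUFA4L2, MTHFD1 ZBTB25 and ALDH1L2 C12orf45. MTHFD1L holds small genes such as ARL4AP5 on its own strand. Libraries were strand-specific per the labels, but whether counting used strand is not given in the sources used here.

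MTHFD1L, on chromosome 6, encodes the mitochondrial formate-forming synthetase that acts after MTHFD2. It had 13.40 in each control library and 13.31 and 13.33 in the knockdown libraries. The difference was small but close to 4 times the 0.02 between the knockdown libraries, at -0.09 ± 0.03 (SE; 95% interval -0.15 to -0.02; limma, adjusted p = 0.0228). The call was lost without control replicate 1 (limma, adjusted p = 0.0771), without ARIEL knockdown replicate 1 (0.173) and without ARIEL knockdown replicate 2 (0.0865), at differences of -0.10 to -0.08. MTHFD2 and MTHFD1L act in sequence and moved in opposite directions. In the same library MTHFD2 exceeded MTHFD1L by 1.12 and 1.07 on the rlog scale in control and by 1.39 and 1.35 in knockdown libraries.

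MTHFD1, on chromosome 14, had 14.48 and 14.47 in control libraries and 14.53 in each knockdown library. Its difference of 0.05 ± 0.03 (SE; 95% interval -0.01 to 0.12) did not pass (limma, adjusted p = 0.162). It was called higher under quantile normalization (0.07, limma adjusted p = 0.0279) and with the trend with transcript GC content and length removed (0.09, limma adjusted p = 2.25e-04). The authors' deposited table gives a log2 fold change of 0.10 ± 0.05 (SE, adjusted p = 0.120). ALDH1L2, on chromosome 12, had 0.78 and 0.78 in control and 0.78 and 0.77 in knockdown libraries. It was below the filter and was not tested.

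**Figure D2:**
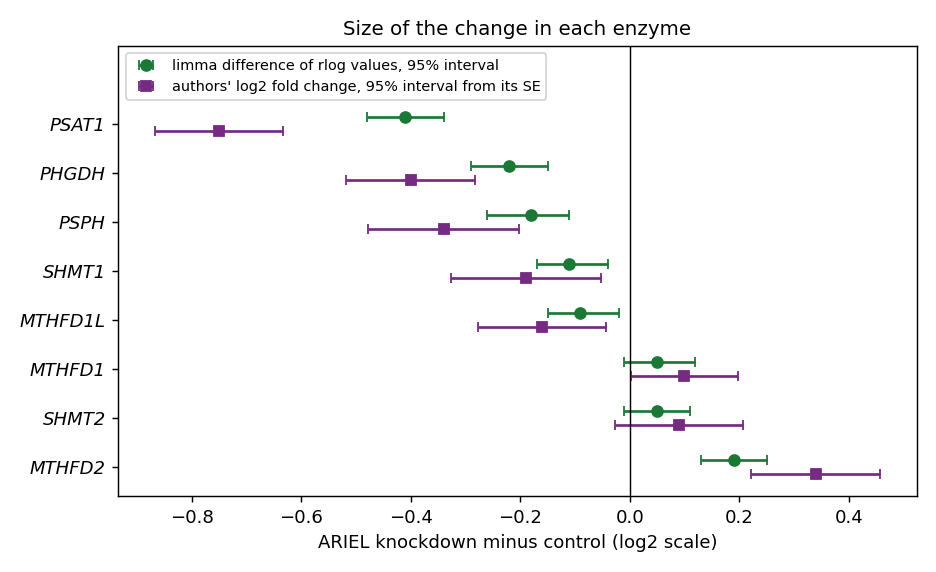
Horizontal axis: ARIEL knockdown minus control on the log2 scale for the 8 tested enzymes. Circles are limma differences of rlog values with 95% intervals, and squares are the authors' deposited log2 fold changes with 95% intervals from their SE. For every enzyme both have the same sign, and the deposited value is farther from 0, from -0.75 for PSAT1 to 0.34 for MTHFD2.

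Per kilobase of transcript, the mitochondrial enzymes MTHFD2 and SHMT2 were the most abundant. Mean control rlog minus log2 of the median GENCODE transcript length in kilobases was 13.60 for MTHFD2 and 13.06 for SHMT2. MTHFD1 (12.16) and PHGDH (12.13) followed, 0.03 apart and within the SD of 0.04 between control libraries for PHGDH. SHMT1 had 11.97, PSAT1 11.76, MTHFD1L 11.67 and PSPH 10.68. In knockdown libraries PSAT1, at 11.35, came below MTHFD1L, at 11.59, and the order was otherwise the same. In rlog alone, MTHFD2 exceeded PSAT1 by 1.90 and 1.88 in control and by 2.50 and 2.49 in knockdown libraries. Transcript isoforms in these cells were not measured, so the order between near neighbours rests on the lengths chosen.

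Differences in this comparison rose with transcript GC content over all genes, from a median of -0.08 in the lowest GC decile to 0.08 in the highest. PSAT1 and MTHFD2 both have low GC content, 44.1% and 41.4%, and moved in opposite directions, where the median difference of their deciles was -0.03 and -0.05. PHGDH has a GC content of 58.3%, in a decile with a median of 0.04, and fell. Once the GC and length trend was removed, PSAT1 differed by -0.38 ± 0.02 (SE), PHGDH by -0.27 ± 0.02, PSPH by -0.18 ± 0.03 and MTHFD2 by 0.23 ± 0.02. The 6 calls all remained, and SHMT2, at 0.01 ± 0.02, had nearly no difference left.

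**Figure D3:**
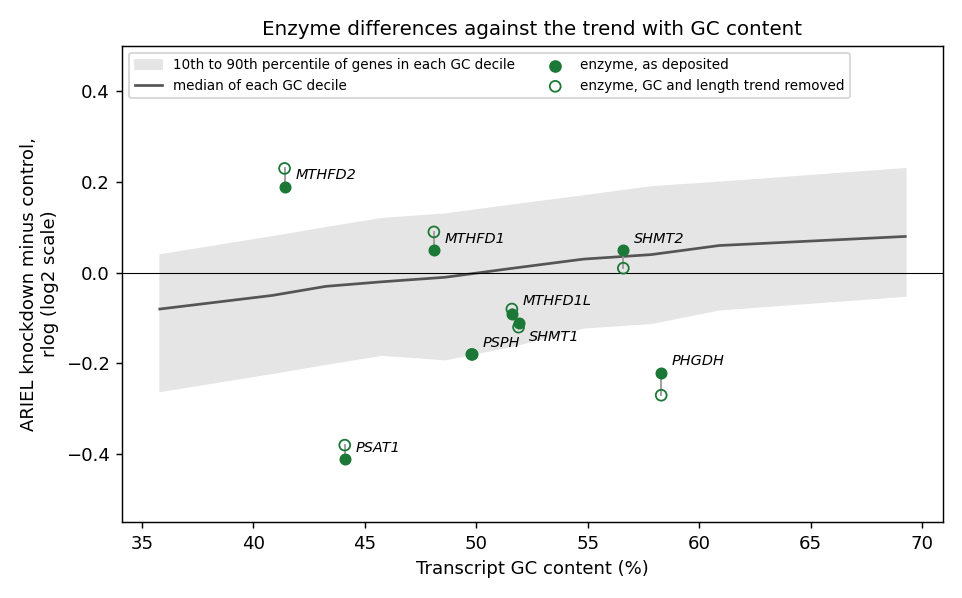
Horizontal axis: median GC content (%) of a gene's GENCODE transcripts. Vertical axis: ARIEL knockdown minus control in rlog (log2 scale). The line is the median and the band the 10th to 90th percentile of genes in each GC decile, filled circles are the 8 enzymes as deposited and open circles the same with the GC and length trend removed. As deposited, MTHFD2 lies above the band and PSAT1 and PHGDH below it. The band was drawn from differences as deposited, so the open circles have no matching band.

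Promoter sequence was read as a planned description, with no test. RefSeq windows on GRCh38.p14, 250 bases before to 50 after a start site, were found for 6 of the 9 enzymes: PHGDH, PSAT1, SHMT1, MTHFD1, MTHFD2 and MTHFD1L (9 windows). The motifs were TGATGNAA, the core of the element bound by ATF4 with C/EBP partners, and CACGTG, the E-box bound by MYC and others, on both strands. The motifs do not overlap each other. Shown are the 250 bases before the start of the largest fall, the first enzyme of the pathway and the rise, all on the + strand, where a match to either motif would stand in capitals. For PSAT1 this is chr9:78296875-78297124, for PHGDH chr1:119711684-119711933 and for MTHFD2 chr2:74198365-74198614.
PSAT1: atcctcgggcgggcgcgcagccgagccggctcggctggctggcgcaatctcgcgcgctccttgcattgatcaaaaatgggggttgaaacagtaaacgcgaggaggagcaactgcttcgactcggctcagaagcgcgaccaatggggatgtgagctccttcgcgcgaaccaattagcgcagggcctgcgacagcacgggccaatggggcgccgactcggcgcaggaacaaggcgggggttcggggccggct
PHGDH: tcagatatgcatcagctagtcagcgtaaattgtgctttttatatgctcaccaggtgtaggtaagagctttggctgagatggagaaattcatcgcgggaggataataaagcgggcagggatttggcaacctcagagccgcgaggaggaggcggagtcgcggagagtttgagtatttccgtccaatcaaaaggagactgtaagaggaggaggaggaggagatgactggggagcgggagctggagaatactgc
MTHFD2: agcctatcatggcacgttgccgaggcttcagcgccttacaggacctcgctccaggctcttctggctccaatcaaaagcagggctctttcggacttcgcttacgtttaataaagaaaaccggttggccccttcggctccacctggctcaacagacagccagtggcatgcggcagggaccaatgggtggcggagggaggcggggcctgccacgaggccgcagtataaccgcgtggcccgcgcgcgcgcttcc

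None of these 3 sequences holds either motif, and neither does the window of SHMT1. Just exact matches within these windows were read. The lack of a match thus does not show that a gene has no site elsewhere or with other letters. A single enzyme, MTHFD1L, held TGATGNAA, which 3.62% of all 35116 RefSeq windows and 4.46% of their 27305 genes hold. Its 30 bases around the match, at chr6:150866346-150866375 on the + strand with the match in capitals, are as follows.
MTHFD1L: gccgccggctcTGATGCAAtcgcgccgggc

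The stricter form TGATGCAA, found in 0.866% of windows and 1.08% of genes, matches at the same place. MTHFD1L has 3 overlapping windows from neighbouring start sites that share the match, and a CACGTG starts 25 bases before it. A further window of MTHFD1L, at chr6:151006758-151007057, holds neither motif. MTHFD1 has a CACGTG 15 to 10 bases before its start. CACGTG occurs in 7.26% of all windows and in 8.77% of genes. A match is a description of letters, not of binding.

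**Figure D4:**
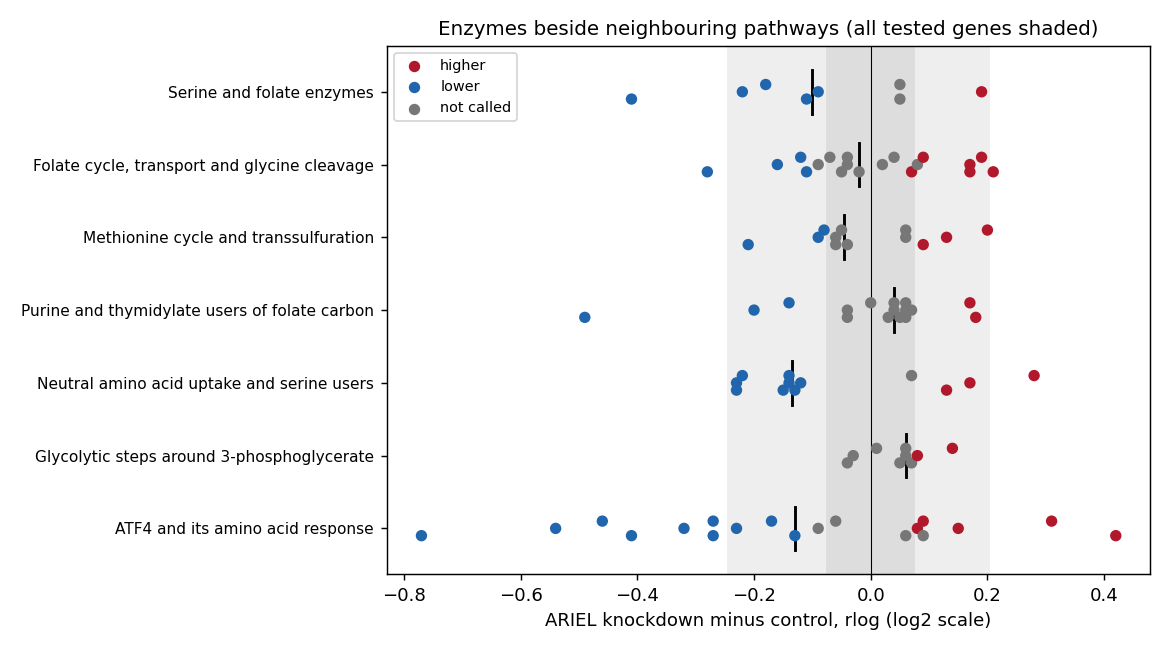
Each point is a tested gene, at its ARIEL knockdown minus control difference in rlog (log2 scale, horizontal axis), in the serine and folate enzymes and 6 neighbouring gene lists (rows). Red is called higher, blue called lower and grey not called (limma, adjusted p under 0.05), black bars are list medians, and shading spans the 5th to 95th (light) and 25th to 75th (dark) percentile of all tested genes. The lists of neutral amino acid uptake and serine users and of the ATF4 response sit furthest left, with medians of -0.14 and -0.13.

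The other genes of folate metabolism went in both directions. Of 19 tested genes of the folate cycle, folate transport and glycine cleavage, 6 rose and 4 fell, with a median of -0.02. Across all tested genes 22.1% were higher and 22.4% lower. SLC25A32, which carries folate into mitochondria, rose by 0.19 (SE 0.03), from 12.54 and 12.51 to 12.74 and 12.69. DLD, a dehydrogenase shared by the glycine cleavage system and other mitochondrial complexes, rose by 0.21. GLDC, the decarboxylase that starts glycine cleavage, fell by 0.28, from 9.31 and 9.28 to 9.02 and 9.01. For GLDC the libraries of each group lay within 0.03 of each other.

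TYMS, the thymidylate synthase, had 14.45 and 14.46 in control and 14.39 and 14.38 in knockdown libraries and was not called (limma, adjusted p = 0.0573), though the authors' deposited table gives it an adjusted p of 0.0315. It was called lower, at -0.08, with the GC and length trend removed (limma, adjusted p = 5.51e-04). ALDH1L1, the cytosolic counterpart of ALDH1L2, rose by 0.17 at a low level, from 5.54 and 5.55 to 5.73 and 5.69. FTCD, SLC46A1 and FOLR1 were too low to test.

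Transcripts in the list of neutral amino acid uptake and serine use leaned lower, and neither uptake nor use was measured. Of 12 tested genes in this list, 8 fell and 3 rose (median -0.14). Across all tested genes 22.4% were lower and 22.1% higher. SLC1A4, a transporter of serine, alanine and cysteine, fell by 0.22, from 13.11 and 13.12 to 12.87 and 12.92, and SLC38A1, a glutamine and neutral amino acid transporter, fell by 0.23. SPTLC2, a subunit of the enzyme that joins serine to a fatty acid in sphingolipid synthesis, fell by 0.23. SLC38A5, another neutral amino acid transporter, rose by 0.28, from 11.13 and 11.19 to 11.40 and 11.47.

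Of 9 tested glycolytic genes on either side of 3-phosphoglycerate, the substrate of PHGDH, 2 rose and 7 were not called (median 0.06). Across all tested genes 22.1% were higher and 22.4% lower. Those that rose were PKM (0.14, and 0.06 under quantile normalization) and PGAM1 (0.08), the enzyme that competes with PHGDH for 3-phosphoglycerate. Neither was called without control replicate 1 or without ARIEL knockdown replicate 2, which left 0 higher in the list (limma, adjusted p 0.0651 to 0.551), and PGAM1 was not called without control replicate 2 either (0.189). With GC and length trends removed the list had 4 higher and 2 lower.

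Genes of purine and thymidylate synthesis, which spends the carbon units, were mostly not called, and not every one uses the units itself. Beside the counts of this paragraph, those of the methionine list among them, 22.1% of all tested genes were higher and 22.4% lower. Of 16 tested genes of purine and thymidylate synthesis, 3 fell, 2 rose and 11 did not pass (median 0.04); with the GC and length trend removed 6 rose. PRPS1, which makes the ribose phosphate donor, fell by 0.49, from 13.18 and 13.14 to 12.65 and 12.70, more than any of the 9 enzymes. PPAT, the first enzyme committed to purines, fell by 0.20, while IMPDH1 rose by 0.17 and the thymidylate kinase gene DTYMK by 0.18. These differences were smaller once the GC and length trend was removed, at -0.11, 0.10 and 0.10. In the methionine cycle and transsulfuration, 3 of 12 rose and 3 fell (median -0.05), with 1 lower without control replicate 1 or without ARIEL knockdown replicate 2. CBS, which joins homocysteine to serine, fell by 0.21, from 11.79 and 11.80 to 11.58 in each knockdown library, and SRM, the spermidine synthase, rose by 0.20, or by 0.10 once the GC and length trend was removed. AHCYL2 rose by 0.13, a call lost without control replicate 1 (limma, adjusted p = 0.0738) or ARIEL knockdown replicate 1 (0.0546), and AMD1 had a difference of -0.09 that went to 0.0001 with the GC and length trend removed and was not called without control replicate 1 (0.417) or ARIEL knockdown replicate 2 (0.367). MTAP, the methionine salvage enzyme, was listed at 0 in every library, as was BHMT.

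The transcript of ATF4 itself fell. It had 15.82 and 15.78 in control against 15.25 and 15.28 in knockdown libraries, a difference of -0.54, and the authors' deposited table has it 1.95-fold lower. Of 19 tested genes in a list of ATF4 and its amino acid response, which counts ATF4 but none of the 9 enzymes, 10 fell and 5 rose (median -0.13), with 3 higher without control replicate 1 or without ARIEL knockdown replicate 2. Across all tested genes 22.4% were lower and 22.1% higher. The cystine transporter gene SLC7A11 fell by 0.77 and VLDLR by 0.46, while the mTORC1 inhibitor DDIT4 rose by 0.31. The largest rise in the list was that of DDIT3, at 0.42. PHGDH, PSAT1 and PSPH thus fell alongside ATF4. Of its other known targets named above, SHMT2 was not called, at 0.05, and MTHFD2 rose. MYC had 14.48 and 14.45 in control and 14.59 and 14.61 in knockdown libraries, a rise of 0.14. The shared direction with either factor was not tested as a cause.

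The genes most like PSAT1 over the 4 libraries were PIP4K2A, PLCB1, C1orf112, UBE2T and ADAM17. Likeness was the Euclidean distance between rlog values centred on each gene's mean, and these had distances of 0.018 to 0.023. PIP4K2A, for example, had 13.42 and 13.38 in control and 12.99 and 13.00 in knockdown libraries. With 4 libraries, such likeness says little more than that the differences were of one size, between -0.40 and -0.43.

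All calls rest on sharing the spread between genes of similar level. In the main fit the shared spread had full weight, so a gene's own variance did not enter its SE, interval or p-value. For SHMT1 that SE was 0.03, against 0.05 from its own variance. When every gene was tested on its own variance alone (2 residual degrees of freedom), limma called none of the 14601 genes, with 2320 higher and 2241 lower at an unadjusted p under 0.05. Among the enzymes that count was 4 lower (PHGDH, PSAT1, PSPH and MTHFD1L) and 2 higher (MTHFD1 and MTHFD2), and adjusted p for the 6 called enzymes was 0.0848 to 0.295.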

How the data were processed

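The authors deposited 1 table with 22361 rows. Per the file headers it holds rlog values on the log2 scale for each library. Beside them stand the results of the authors' own comparison: log2 fold change, standard error, test score, p-value and adjusted p. Tools named in the submitters' processing notes are DESeq2 1.12.4, HTSeq 0.6.1 and STAR 2.5.2a, with build hg19. Not given in the sources used here are their roles, the annotation, the filters and the basis of the size factors. Depth is unknown.

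limma 3.58.1 (R 4.3.3; lmFit, eBayes with a trend on level) was fitted to the rlog values, with no pseudocount, over the 14601 genes whose rlog averaged log2 of 10 or more. Adjustment was by Benjamini-Hochberg. The fit was also run on simulated data whose spread depended on level alone. That is what the fit assumes, so this run could not test the assumption. Groups and replicate numbers came from sample titles. GENCODE 29 gave transcript length and GC content for 87.0% of tested genes (splines, 5 degrees of freedom). No coordinates of the deposited genes are given, since GENCODE 29 is on another build. Named genes were the 9 enzymes, up to 4 called members with the smallest adjusted p in each of 6 lists, ATF4, MYC, TYMS, XLOC_005968, and the 5 genes most like the enzyme with the largest change. DDIT3 was added after its value was seen. Members and lists were chosen with earlier results of these data known. Some items that the rule names are not reported here. The planned protein comparison was not run. Figures were drawn with matplotlib 3.10.9.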

Additional observations from a re-analysis of the deposited data

How the results depend on the processing

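Each of the 8 tested enzymes was recomputed under 14 other fits and set beside the authors' deposited statistics: 107 of 120 values kept their direction and side of the threshold, 10 lost a call, 3 gained one and none reversed. With no spread shared between genes, limma called none of the enzymes, of the context lists or of all tested genes (0 higher and 0 lower), at the same differences: PHGDH -0.22 (adjusted p = 0.116), PSAT1 -0.41 (0.0848), PSPH -0.18 (0.126), SHMT1 -0.11 (0.295), MTHFD2 0.19 (0.125) and MTHFD1L -0.09 (0.109). MTHFD1 gained a call, making 2 enzymes higher, under quantile normalization (0.07), with the GC and length trend removed (0.09) and with that and the replicate block (0.09).

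With 1 library left out, the remaining library of its group is assumed to vary like the others. All tested genes called higher were then 2004 to 3061, with the fewest without ARIEL knockdown replicate 2. Enzymes called lower were 3 to 5, with 3 without ARIEL knockdown replicate 1, SHMT1 differed by -0.15 to -0.06 and MTHFD1L by -0.10 to -0.08. Genes called higher were 0 to 2 in the glycolytic list and 3 to 5 in the ATF4 list, and 1 to 3 were called lower in the methionine list. The lowest of these 3 ranges occurred without control replicate 1 and without ARIEL knockdown replicate 2.

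Among context lists, the purine list had 6 higher with the GC and length trend removed, with or without the block, and 4 higher with the replicate block alone. The glycolytic list had 1 higher with no filter and with no trend on level, 4 higher and 2 lower with the GC and length trend removed, with or without the block, and 1 lower under quantile normalization. The methionine list had 1 lower with no trend on level. AMD1 reversed, to 0.0001, with the GC and length trend removed, with or without the block; the cause was not tested.

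Same-numbered libraries deviated together with a correlation of 0.198 across genes, and -0.007 once the GC and length trend was removed. With 2 pairs and no label that ties the numbers, they were not taken as pairs. The replicate block alone moved all calls from 3224 to 3722 higher and from 3264 to 3704 lower, and left the 5 lower and 1 higher among the enzymes; TYMS was called lower under it (-0.07, limma adjusted p = 0.0103). The table gives no counts, so depth sets no stated limit.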

Other observations

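Genes that set how much folate a cell holds were among the changes not described above; they were picked after their values were seen. FPGS, which adds the glutamate tail that keeps folate in the cell, rose by 0.17 (limma, adjusted p = 4.38e-06), from rlog values of 12.95 and 13.00 to 13.15 and 13.14; the rise was 0.09 after removal of the GC and length trend. GGH, which removes that tail, fell by 0.11 (limma, adjusted p = 0.0134), from 11.88 and 11.85 to 11.77 and 11.75. SLC19A1, the reduced folate carrier of the cell surface, rose by 0.09 (limma, adjusted p = 0.0230), from 12.12 and 12.17 to 12.24 and 12.23, but its difference was 0.01 once the GC and length trend was removed (limma, adjusted p = 0.860). SFXN1, which carries serine into mitochondria, fell by 0.12 (limma, adjusted p = 3.90e-04), from 14.68 and 14.64 to 14.52 and 14.55. The GGH and SLC19A1 calls were each lost without control replicate 1, without ARIEL knockdown replicate 1 and without ARIEL knockdown replicate 2 (limma, adjusted p 0.0607 to 0.164), at differences of -0.12 to -0.10 and 0.07 to 0.10.

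The subunits of serine palmitoyltransferase went opposite ways. SPTLC1 rose by 0.17 (limma, adjusted p = 1.51e-06), from 12.94 and 12.86 to 13.09 and 13.06, while SPTLC2 fell by 0.23 (limma, adjusted p = 4.10e-11), from 13.15 and 13.13 to 12.91 in each knockdown library.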
